A study of Mus musculus with 8 samples.

Results

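The genes described are 8 that are widely used to follow epithelial-to-mesenchymal transition, chosen by name from the deposited table: the transcription factors Snai1, Snai2, Twist1, Zeb1 and Zeb2, and the markers Cdh2, Vim and Fn1. Each of the 8 had an entry among the 25766 in the table, and each passed the low count filter that left 14907 genes for testing. They were measured in 8 subcutaneous tumors of MC38-OVA in female C57BL/6J mice (1 protocol field writes C57BL/5J); MC38 is a colon adenocarcinoma line of the mouse, and OVA stands for the antigen ovalbumin. In 4 tumors the injected cells carried shNT, taken here as the control, and in 4 they carried shXBP1, a hairpin against Xbp1, which encodes a factor that drives the unfolded protein response. Whole-tumor RNA was sequenced, so every value mixes cancer cells with host cells, which carry no hairpin. The labels do not say whether a line is 1 clone or whether each tumor came from its own mouse, and p-values measure only the spread between these samples.

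In epithelial-to-mesenchymal transition a cell gives up junctions and polarity and gains motility and matrix contacts. SNAIL (Snai1) and SLUG (Snai2), ZEB1 and ZEB2 are zinc finger repressors that bind E-box sequences in the promoters of epithelial genes such as Cdh1, while TWIST1 is a helix-loop-helix factor that also binds E-boxes. Cells that pass through the transition typically lose E-cadherin (Cdh1) and gain N-cadherin (Cdh2), the intermediate filament vimentin (Vim) and the matrix protein fibronectin (Fn1). Fibroblasts, endothelial cells and macrophages of a tumor also express several of these genes.

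Among the 8 genes, Fn1 was 1.79-fold higher and Cdh2 was 1.53-fold lower in shXBP1 than in shNT tumors, and the 5 transcription factors and Vim did not pass the test. With edgeR at an adjusted p of 0.05, 1 of 8 members was therefore higher, against 16.9% of all tested genes, and 1 of 8 was lower, against 13.1%, so 2 of 8 were called against 30.0%. Groups did not overlap for 3 of 8 members, against 30.2% of tested genes in either direction. These shares are near the background and say nothing particular of the list. The median log2 fold change (shXBP1 minus shNT) was 0.12 over the 8 members and -0.01 over all tested genes.

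Total counts lay between 29070605 and 36012997 per tumor. Xbp1, the targeted gene, was at 96.0 to 109.2 CPM (counts scaled to library size) in the shNT tumors and at 56.6 to 77.2 CPM in the shXBP1 tumors, with no overlap (log2 fold change -0.51, SE 0.10, edgeR adjusted p = 0.00255). On the first principal component of all tested genes, shXBP1 tumor 4 lay at 16.2, between the shNT tumors (-52.0 to -28.1) and the other shXBP1 tumors (43.1 to 48.7). All 10 leukocyte markers, 14 of 16 macrophage and monocyte markers, 12 of 12 T and NK cell markers, 9 of 15 fibroblast markers and 7 of 12 endothelial markers were higher in shXBP1 tumors, while 1 fibroblast marker was lower and 0 of 8 tested pericyte and smooth muscle markers were called. No marker of the first 5 of these lists was at 0 in any tumor. The leukocyte markers summed to 540.0 to 705 CPM in shNT and to 1090 to 1781 CPM in shXBP1 tumors, lowest of its group in shXBP1 tumor 4. The fibroblast markers summed to 2126 to 3254 and 3732 to 4109 CPM, and the endothelial markers to 89.8 to 111.6 and 155.5 to 166.6 CPM. In such bulk samples, fewer cells of a type and less RNA per cell cannot be told apart.

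Epithelial genes were examined because MC38 is an adenocarcinoma line and because the SNAIL and ZEB factors among the members are known repressors of such genes. Of 29 such genes 17 lay below the filter, and 2 of them, the transcription factors Grhl3 and Elf3, had no count in any tumor. The keratins Krt8 and Krt18 had 19 and 0 counts in all 4 shNT tumors together and 11 and 4 counts in the shXBP1 tumors. Epcam, an epithelial surface protein, had 12, 0, 6 and 0 counts under shNT (tumors 1 to 4 in order, here and wherever 4 values follow) and 20, 4, 23 and 16 counts under shXBP1. The other 12 genes of the list passed the filter, and Cdh1 had 144 to 368 counts per tumor. The list as a whole summed to 120.5 to 130.9 CPM in shNT and to 111.8 to 126.8 CPM in shXBP1 tumors. Most of that sum was Tjp1, a tight junction scaffold that other cell types also express, at a mean of 91.1 CPM under shNT and 77.1 CPM under shXBP1 (chosen after its values were seen).

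Levels were compared between genes on the authors' FPKM scale, which divides by gene length. Vim was the most abundant member, at 1413 ± 105.4 FPKM in shNT and 1252 ± 42.3 FPKM in shXBP1 tumors (SD, n = 4 each), and ranked 38th of all entries by mean FPKM. Fn1 followed with 125.5 ± 10.7 and 223 ± 3.61 FPKM. The transcription factors stood far below these structural genes. Twist1 was at 24.9 ± 4.34 and 30.8 ± 5.01 FPKM and Snai2 at 23.1 ± 2.28 and 20.4 ± 1.95 FPKM, and the tumors of these neighbours in the order overlapped. Zeb2 was at 14.3 ± 1.38 and 17.7 ± 2.77 FPKM, Zeb1 at 11.6 ± 0.406 and 13.1 ± 0.725 FPKM and Snai1 at 10.2 ± 2.78 and 11.04 ± 4.10 FPKM, again with overlapping tumors. Cdh2 was the least abundant member, at 4.34 ± 0.389 and 2.85 ± 0.442 FPKM, and lay below Snai1 in every tumor. Cdh1, the epithelial counterpart of Cdh2, was lower still, at 1.18 ± 0.174 and 1.66 ± 0.366 FPKM.

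**Figure D1:**
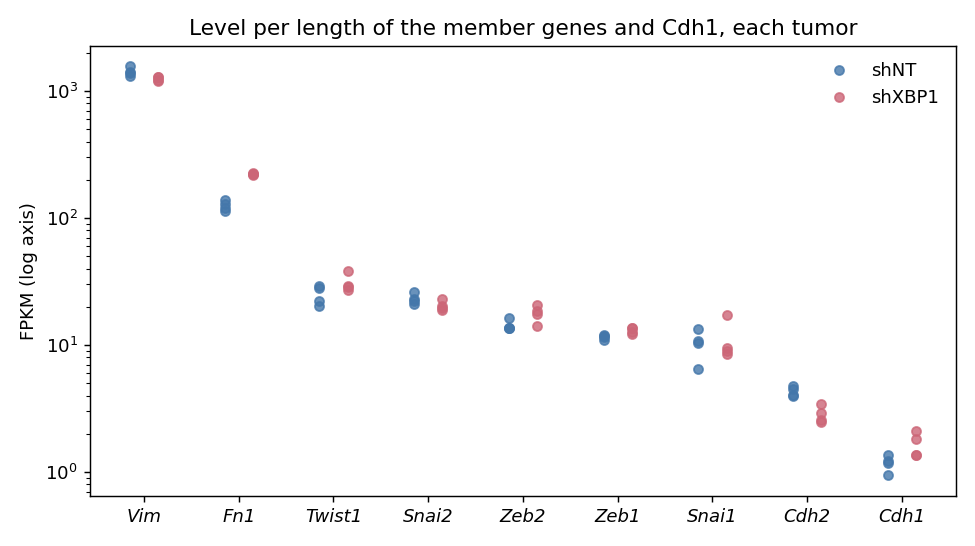
FPKM on a log axis (counts per kilobase of gene and library size, by the authors) of the 8 member genes and of Cdh1; each point is 1 of 8 tumors, blue for shNT and red for shXBP1. Vim and Fn1 stand above the 5 transcription factors in every tumor, and Cdh2 and Cdh1 stand lowest.

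The SNAIL family was described first. Snai1 (ENSMUSG00000042821, GRCm38 chromosome 2, 167538195 to 167542814, plus strand) encodes SNAIL, a short-lived repressor of Cdh1 that is known to bind its own promoter. The 250 bases before its start site (chr2:167537945-167538194, plus strand, RefSeq, GRCm38.p6) hold 1 E-box of the kind SNAIL and ZEB proteins bind, CACCTG, beginning 126 bases before the start and shown in capitals.

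Snai1 promoter: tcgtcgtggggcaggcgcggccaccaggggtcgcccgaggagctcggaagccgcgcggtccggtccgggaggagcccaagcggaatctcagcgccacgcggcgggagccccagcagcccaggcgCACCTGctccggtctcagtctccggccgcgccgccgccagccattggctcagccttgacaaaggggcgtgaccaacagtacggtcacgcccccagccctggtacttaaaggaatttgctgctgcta

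That motif, searched as CACCTG on both strands (CAGGTG on the other), occurs in 17.2% of 32851 such promoter windows. Among the epithelial genes 21 of 29 had a window in the table, and Cdh1 was not among them. The motif lay in 15 of the 27 start sites of these genes, from 13 of the 21 genes. Krt8, Krt18, Epcam and Cldn4 held it, while Cldn3, Dsp and Ovol2 did not. A match describes the letters only and was not set against binding data.

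Snai1 was at 12.2, 18.1, 19.9 and 24.9 CPM under shNT and at 17.7, 17.2, 15.7 and 29.5 CPM under shXBP1. The groups overlapped, with the lowest value in shNT tumor 1 and the highest in shXBP1 tumor 4, and the other 3 shXBP1 tumors lay between 15.7 and 17.7 CPM. The log2 fold change was 0.09 (95% interval -0.46 to 0.65, edgeR adjusted p = 0.806). It was -0.15 without shXBP1 tumor 4 and -0.06 without shNT tumor 1. Of the 8 members Snai1 varied the most within a group relative to its mean, with a coefficient of variation of 27.2% in shNT and 37.1% in shXBP1 tumors on the FPKM scale.

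Snai2 (ENSMUSG00000022676, chromosome 16, 14705852 to 14709385, plus strand) encodes SLUG, the relative of SNAIL that is prominent in neural crest and wound repair. It was at 51.8, 45.8, 53.3 and 61.5 CPM under shNT and at 54.2, 47.6, 44.9 and 40.3 CPM under shXBP1. The tumors of the groups were interleaved, and the log2 fold change was -0.18 (95% interval -0.42 to 0.06, edgeR adjusted p = 0.236). Given the log2 CPM of the leukocyte gene Ptprc as a covariate, Snai2 was at -0.59 (SE 0.23, unadjusted p = 0.0229, edgeR adjusted p = 0.226). The tumor with the highest Snai1 in the shXBP1 group, number 4, had the lowest Snai2. Within tumors, the log2 ratio of Snai2 to Snai1 was 2.08, 1.33, 1.42 and 1.30 under shNT and 1.61, 1.47, 1.51 and 0.45 under shXBP1 (difference -0.27, two-sided exact permutation p = 0.571, adjusted p = 0.571 over 3 ratios). Snai3, the third family member, was called higher, at 0.324 ± 0.0679 CPM under shNT and 1.01 ± 0.297 CPM under shXBP1 (log2 fold change 1.63, SE 0.39, edgeR adjusted p = 0.00764, SD, n = 4 each), a level far below the other SNAIL genes.

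Twist1 (ENSMUSG00000035799, chromosome 12, 33957671 to 33959829, plus strand) encodes a mesodermal helix-loop-helix factor. Its promoter window (chr12:33957421-33957670, plus strand, RefSeq, GRCm38.p6) was searched for the element bound by XBP1 and ATF6, TGACGTGG on either strand, because the hairpin targets Xbp1. It holds a match as CCACGTCA on the printed strand, beginning 99 bases before the start and shown in capitals.

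Twist1 promoter: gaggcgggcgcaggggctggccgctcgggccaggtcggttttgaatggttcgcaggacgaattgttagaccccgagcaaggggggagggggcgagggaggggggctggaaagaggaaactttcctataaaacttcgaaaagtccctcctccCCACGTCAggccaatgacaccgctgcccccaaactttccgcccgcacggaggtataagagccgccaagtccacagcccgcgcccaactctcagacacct

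These 8 letters occur in 0.563% of the 32851 windows. The longer ER stress element, known as ERSE and searched on both strands, occurs in 0.113% of windows and in none of the 7 start sites listed for Snai1, Twist1, Zeb2 and Vim, the 4 members in the promoter table. Neither the E-box nor TGACGTGG was found in the windows of Zeb2 and Vim.

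Twist1 was at 41.4, 35.9, 52.0 and 55.2 CPM under shNT and at 72.0, 52.1, 53.4 and 50.1 CPM under shXBP1. The highest value was that of shXBP1 tumor 1, and the other 3 shXBP1 tumors lay within the upper shNT range. The log2 fold change was 0.30 (95% interval -0.03 to 0.64, edgeR adjusted p = 0.156), so that neither no change nor a rise of 1.5-fold lies outside the interval. Its paralog Twist2 did not pass either (log2 fold change 0.24, adjusted p = 0.190 with edgeR; chosen after its value was seen).

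ZEB1 and ZEB2 are large repressors with 2 zinc finger clusters, and the miR-200 microRNAs are known to restrain both through sites in their 3' untranslated regions. The miR-200 family falls into 2 seed groups, shown because they explain how its sites are recognized in the ZEB transcripts (RefSeq mature sequences, seed bases 2 to 8 in capitals). The first seed is shared by miR-200b, miR-200c and miR-429, and the second by miR-200a and miR-141.

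mmu-miR-200b-3p: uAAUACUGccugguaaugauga
mmu-miR-200a-3p: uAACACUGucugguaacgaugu

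In the longest annotated 3' untranslated region of Zeb2 (4941 bases, GENCODE M21, GRCm38), the match to the first seed, CAGTATT, occurred 5 times and the match to the second, CAGTGTT, 4 times. Zeb1 had 5 and 4 matches in 2401 bases. Among tested genes with a region at least as long, 0.693% had as many matches to the first seed as Zeb2 and 0.167% as many as Zeb1. For the second seed these shares were 5.2% and 1.37%. Twist1, Cdh2 and Vim had 0 matches to either seed. A site of each kind in Zeb2 is given on the minus strand, at chr2:44987746-44987768 and chr2:44987825-44987847, with the seed match in capitals.

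Zeb2 site for miR-200b: ttgaagcacccgtgtCAGTATTa
Zeb2 site for miR-200a: agtgccatccttgtaCAGTGTTc

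The microRNAs themselves were not analysed here. Zeb1 (ENSMUSG00000024238, chromosome 18, 5591860 to 5775467, plus strand) was at 76.2, 72.3, 70.4 and 74.6 CPM under shNT and at 79.2, 88.1, 77.2 and 78.2 CPM under shXBP1. Every shXBP1 tumor lay above every shNT tumor, as was the case for 16.6% of tested genes, but the gap between 76.2 and 77.2 CPM was small. The log2 fold change was 0.14 (95% interval -0.03 to 0.30, edgeR adjusted p = 0.190).

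Zeb2 (ENSMUSG00000026872, chromosome 2, 44983632 to 45117395, minus strand) is also expressed by macrophages and lymphocytes, where it takes part in their differentiation. It was at 123.9, 109.4, 117.9 and 116.5 CPM under shNT and at 123.4, 160.7, 144.2 and 122.4 CPM under shXBP1. Tumors 2 and 3 of the shXBP1 group stood above all others, and tumors 1 and 4 overlapped the shNT group. The log2 fold change was 0.24 (95% interval 0.03 to 0.44), which did not pass after adjustment (edgeR adjusted p = 0.0821). It passed without shXBP1 tumor 4 (0.29, adjusted p = 0.0261) and when only genes with 10 CPM in 4 libraries were tested (0.28, adjusted p = 0.0456). The same tumors 2 and 3 had the highest summed leukocyte markers, 1781 and 1631 CPM, against 1537 and 1090 CPM in tumors 1 and 4. On the FPKM scale, however, Zeb2 in shXBP1 tumor 4 (18.4) lay above tumor 3 (17.6) and above every shNT tumor (at most 16.4). When the log2 CPM of Ptprc, which encodes the leukocyte antigen CD45, entered the fit as a covariate, the log2 fold change of Zeb2 was -0.19 (SE 0.18, edgeR adjusted p = 0.655). With the mean of the fibroblast markers as covariate it was 0.21 (SE 0.25, edgeR adjusted p = 0.900). The part of leukocytes in the Zeb2 values was not tested.

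Zeb2 was the member whose FPKM and counts diverged most. The gene length implied by the counts and FPKM of a tumor ranged from 6.88 to 8.88 kb for Zeb2 and from 1.77 to 1.89 kb for Snai1. The antisense gene Zeb2os shares 653 exonic bases with Zeb2, 3.27% of the exonic length of Zeb2, and has no entry of its own in the deposited data. Without a stated strand setting, reads of Zeb2os in these shared bases cannot be told apart from those of Zeb2. The log2 ratio of Zeb2 to Zeb1 was 0.70, 0.60, 0.74 and 0.64 in shNT and 0.64, 0.87, 0.90 and 0.65 in shXBP1 tumors. The difference was 0.09 (two-sided exact permutation p = 0.314, adjusted p = 0.471 over 3 ratios).

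**Figure D2:**
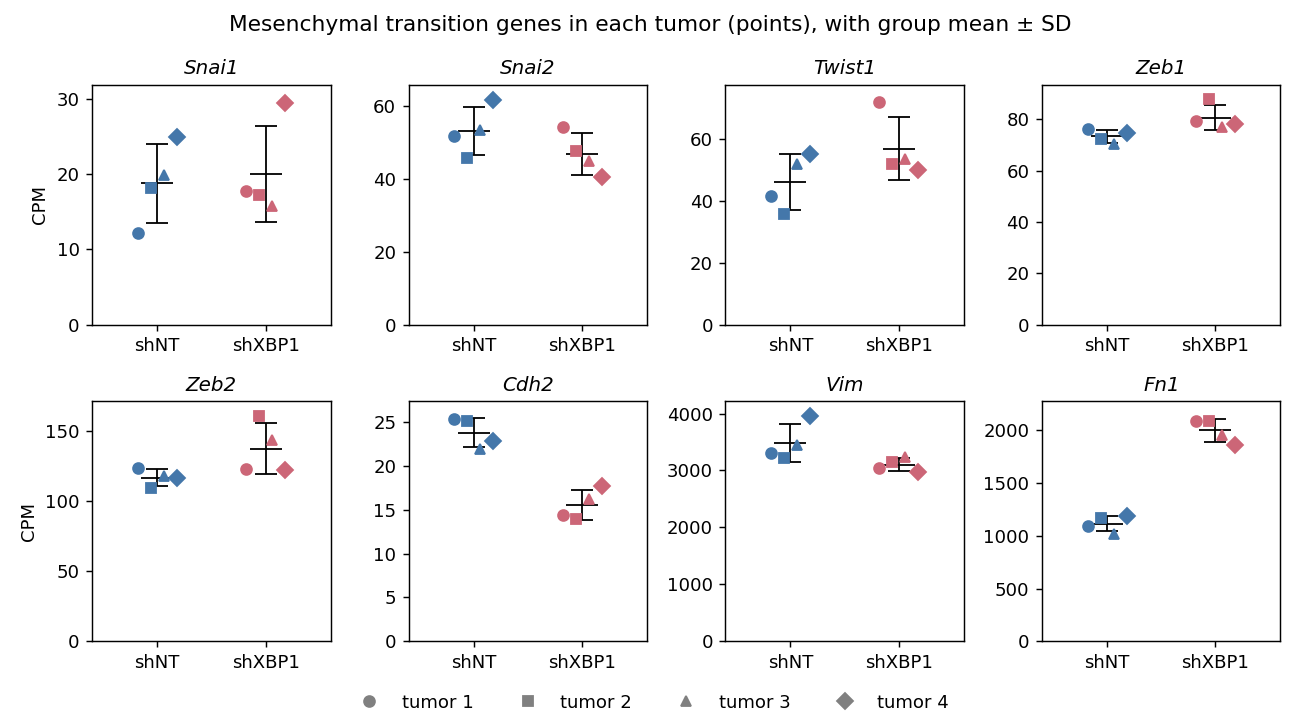
CPM of each member gene in each tumor, with shNT in blue and shXBP1 in red, marker shapes for tumor numbers 1 to 4, and bars for the group mean ± SD. Fn1 and Cdh2 separate the groups widely and Zeb1 narrowly, while the other 5 genes overlap; shXBP1 tumor 4 is high for Snai1 and shXBP1 tumor 1 for Twist1.

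Among the markers, Cdh2 (ENSMUSG00000024304, chromosome 18, 16588877 to 16809246, minus strand) encodes N-cadherin, the adhesion molecule of mesenchymal and neural cells. It was at 25.3, 25.1, 21.9 and 22.9 CPM under shNT and at 14.4, 13.98, 16.2 and 17.7 CPM under shXBP1. The lowest shNT tumor stood above the highest shXBP1 tumor. Cdh2 fell by 0.61 on the log2 scale (SE 0.11, 95% interval -0.84 to -0.38, edgeR adjusted p = 0.00128). The value in the authors' deposited table is -0.59. Leaving out each tumor in turn gave values from -0.67 to -0.56, each past the threshold. Given the Ptprc covariate the log2 fold change was -0.23 (SE 0.23, edgeR adjusted p = 0.672), and given the mean of the fibroblast markers as covariate it was -0.30 (SE 0.26, adjusted p = 0.837).

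Cdh1 encodes E-cadherin, the epithelial counterpart. It was at 6.96, 4.54, 6.00 and 6.24 CPM under shNT and at 7.01, 7.04, 9.33 and 9.86 CPM under shXBP1. The groups did not overlap, though shNT tumor 1 and shXBP1 tumor 1 differed by under 0.1 CPM. Cdh1 did not pass in edgeR (log2 fold change 0.49, SE 0.18, adjusted p = 0.0597), and it passed with DESeq2 (0.49, adjusted p = 0.0369). In the authors' deposited table it stands at 0.46 with an adjusted p of 0.0333. The log2 ratio of Cdh2 to Cdh1, the measure of a cadherin switch, was 1.85, 2.45, 1.86 and 1.86 under shNT and 1.03, 0.98, 0.80 and 0.84 under shXBP1. The groups did not overlap, and the difference of means was -1.09 (two-sided exact permutation p = 0.0286, the smallest that 4 against 4 allows; adjusted p = 0.0857 over 3 ratios, which does not pass). Of 13 tested genes for N-cadherin partners and processing, 2 were higher and 1 was lower. The shares over all tested genes were 16.9% and 13.1%. Psen2, of the gamma-secretase complex, which cleaves cadherins, rose by 1.003 on the log2 scale (SE 0.12, edgeR adjusted p = 0.000149). The gene that fell was Ctnnb1, beta-catenin, from 514 ± 17.3 to 439 ± 34.2 CPM (adjusted p = 0.0496 with edgeR). That call was lost without any 1 of the tumors except shXBP1 tumor 4, and with the other size factors, either other filter or the tumor number as a block. Among these partners 4 were higher without shNT tumor 4, and 3 were lower without shXBP1 tumor 4.

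Vim (ENSMUSG00000026728, chromosome 2, 13573927 to 13582826, plus strand) encodes vimentin, the intermediate filament of mesenchymal cells, fibroblasts, endothelium and leukocytes. It took 0.347% of all counts in shNT and 0.312% in shXBP1 tumors. Vim was at 3315, 3226, 3442 and 3961 CPM under shNT and at 3050, 3148, 3236 and 2975 CPM under shXBP1. The highest value was that of shNT tumor 4, and shNT tumor 2 lay within the shXBP1 range. The log2 fold change was -0.17 (95% interval -0.37 to 0.03, edgeR adjusted p = 0.186). A change of 1.5-fold in either direction lies outside this interval. Of 10 tested genes for other intermediate filaments and vimentin partners, 2 were lower and 1 was higher. The shares over all tested genes were 13.1% and 16.9%. Nes, nestin, fell by 0.84 (SE 0.13, edgeR adjusted p = 0.000728), Lmna, lamin A/C, fell by 0.34 (SE 0.10, adjusted p = 0.0175), and Synm, synemin, rose by 0.75 (SE 0.19, adjusted p = 0.0119). The call of Lmna was lost without shNT tumor 4 or shXBP1 tumor 2, which left 1 gene lower, and 2 genes were higher without shXBP1 tumor 2 or without shXBP1 tumor 4.

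Fn1 (ENSMUSG00000026193, chromosome 1, 71585520 to 71653200, minus strand) encodes fibronectin, a matrix glycoprotein made by fibroblasts, macrophages, endothelium and mesenchymal tumor cells. It was at 1093, 1164, 1020.0 and 1185 CPM under shNT and at 2087, 2089.8, 1959.6 and 1861 CPM under shXBP1. The groups were far apart relative to their spread, and the share of all counts rose from 0.111% to 0.200%. Fn1 rose by 0.84 on the log2 scale (SE 0.09, 95% interval 0.66 to 1.03, edgeR adjusted p = 4.03e-05), the same 0.84 as in the authors' deposited table. Leaving out each tumor in turn gave 0.81 to 0.88. In CPM, both Fn1 and the summed leukocyte and macrophage markers of shXBP1 tumor 4 were the lowest of the group and above every shNT tumor. On the FPKM scale Fn1 was at 223.04, 226.85, 218.07 and 223.25 in the shXBP1 tumors, with tumor 3 the lowest.

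With Ptprc as a covariate the log2 fold change of Fn1 was 0.79 (SE 0.20, unadjusted p = 0.00121, edgeR adjusted p = 0.0631), and with the fibroblast marker mean it was 0.76 (SE 0.23, unadjusted p = 0.00642, adjusted p = 0.429). The value moved little, while its SE was 2.30 and 2.65 times as large. The part of endothelial markers in this result was not tested. The opposite-strand gene Apol7d shares 292 exonic bases with Fn1, 2.50% of its exonic length.

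**Figure D3:**
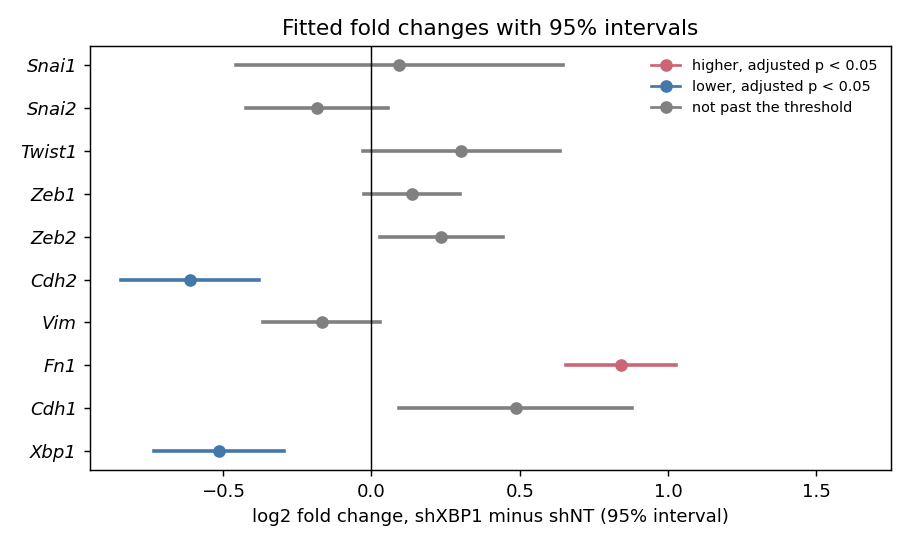
Log2 fold change (shXBP1 minus shNT) of the 8 member genes, of Cdh1 and of the targeted gene Xbp1, with lines for the 95% interval of the fit. Fn1 lies to the right and Cdh2 and Xbp1 to the left of 0, whereas the intervals of Snai1, Snai2, Twist1, Zeb1 and Vim include 0. The intervals of Zeb2 (0.03 to 0.44) and Cdh1 (0.09 to 0.88) also lie to the right of 0, though neither gene passed after adjustment.

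**Figure D4:**
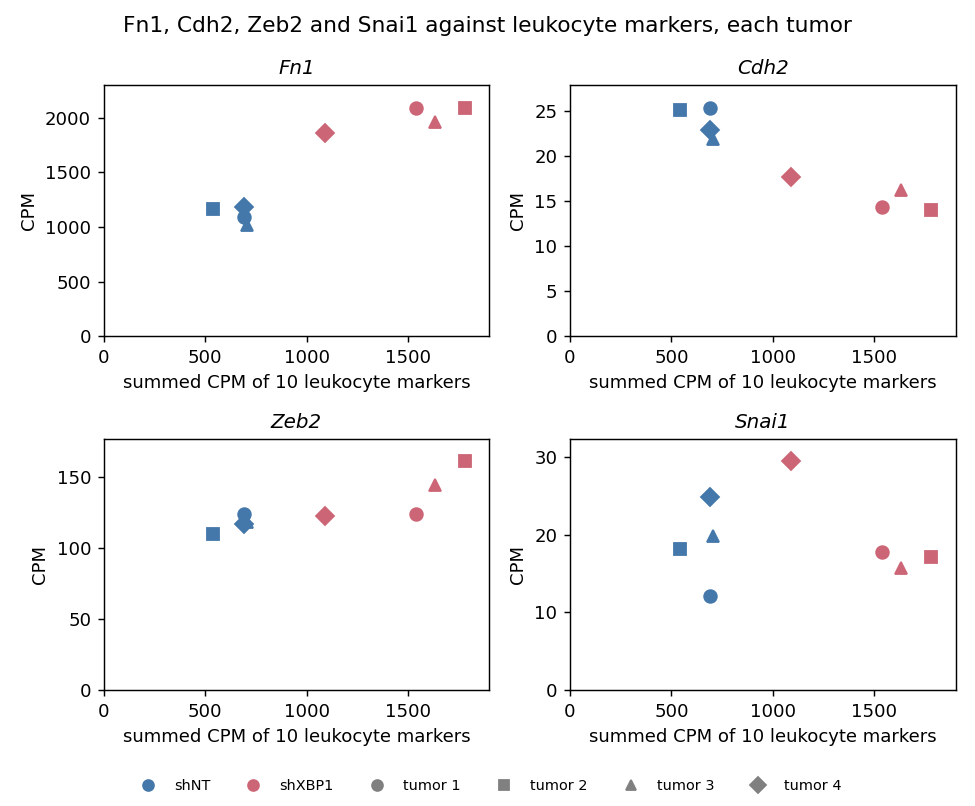
CPM of Fn1, Cdh2, Zeb2 and Snai1 against the summed CPM of 10 leukocyte markers in each tumor (blue shNT, red shXBP1, shapes for tumor numbers). In CPM, Zeb2 is highest in the 2 tumors with the most leukocyte marker RNA. Snai1 is highest in shXBP1 tumor 4, which has the least of its group. On the FPKM scale, not drawn here, Zeb2 in shXBP1 tumor 4 (18.4) lies above tumor 3 (17.6).

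The list of genes that act with fibronectin held receptors and crosslinkers. Of 16 tested fibronectin receptors and matrix assembly genes, 8 were higher and 0 were lower (edgeR; 1 was lower without shXBP1 tumor 4), with a median log2 fold change of 0.22, against 16.9% of tested genes called higher. Itgb3, the beta-3 integrin of a fibronectin and vitronectin receptor, rose from 13.2 ± 2.61 to 33.4 ± 3.94 CPM (adjusted p = 4.62e-05 with edgeR). Tgm2, a transglutaminase that crosslinks fibronectin, was 1.54-fold higher, Sdc2, a syndecan, 1.70-fold and Itga4, a receptor chain of leukocytes, 1.89-fold. Itga5, the alpha chain of the classical fibronectin receptor, was at 172 ± 4.10 and 213 ± 33.6 CPM (adjusted p = 0.0403 with edgeR). That call was lost without any 1 of the tumors except shXBP1 tumors 2 and 3, with limma voom and with the tumor number as a block. Its partner Itgb1 did not pass (log2 fold change -0.03, adjusted p = 0.841 with edgeR; chosen after its value was seen). All 10 leukocyte markers and 9 of 15 fibroblast markers were higher in the same tumors. With the Ptprc covariate 1 of the fibronectin receptors and matrix assembly genes was called higher. That fit called 134 of all tested genes higher, against 2517 without the covariate.

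Other mesenchymal genes moved in both directions. Of 31 tested, 11 were higher and 5 were lower, with a median of 0.18. Over all tested genes 16.9% were higher and 13.1% lower. Acta2, smooth muscle actin, was 2.77-fold higher (44.7 ± 4.36 and 124.1 ± 8.62 CPM, adjusted p = 2.06e-06 with edgeR), Col3a1, a fibrillar collagen, 3.27-fold higher and Loxl2, a collagen crosslinking enzyme, 1.59-fold higher. Tnc, tenascin C, fell by 0.71 (SE 0.10, edgeR adjusted p = 0.000318). Tagln, Postn, Sparc and Axl were the others that were lower (-0.83, -0.77, -0.38 and -0.31; chosen after their values were seen). The number that were lower was 3 without shNT tumor 4 or without shXBP1 tumor 2, and 2 with the tumor number as a block. Of 15 fibroblast markers in the same tumors, 9 were higher, 1 was lower and 5 were not called, with a median log2 fold change of 0.75. Dcn, the proteoglycan decorin, and Dpt, dermatopontin, were among those with the smallest p, at 1.77 and 3.48. Given the Ptprc covariate 3 of these mesenchymal genes were higher and 0 lower. The Ptprc fit called 134 genes of the whole table higher and 106 lower. Given the fibroblast covariate 0 of these mesenchymal genes were called, in a fit that called 3 genes of the whole table.

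Most other regulators of the transition were below the threshold, as were most tested genes. Of all tested genes 30.0% were called, 16.9% higher and 13.1% lower. Of 20 tested other transition factors, 1 was higher and 3 were lower. Tead4, a partner of YAP, was 1.998-fold lower, at 16.1 ± 2.46 and 8.05 ± 2.02 CPM (edgeR adjusted p = 0.00152). Tcf3, which encodes the E2A factors, fell by 0.36 (SE 0.11, edgeR adjusted p = 0.0202), and Foxc2, a forkhead factor, by 0.40 (SE 0.13, adjusted p = 0.0399). The call of Foxc2 was lost without any 1 of the tumors except shXBP1 tumor 4, under the filter of 10 CPM in 4 libraries and with the tumor number as a block. Leaving out tumor 2 or 3 of either group left 1 of these factors lower, and 2 were higher without shXBP1 tumor 4. Of 21 genes for TGF-beta signalling and other inducers, 5 were higher and 1 was lower. Hmga2, a chromatin protein that acts upstream of Snai1 and Twist1, was the lower gene, at 457 ± 71.1 and 259 ± 30.5 CPM (log2 fold change -0.82, edgeR adjusted p = 0.000466). Tgfbr2, the type II TGF-beta receptor, was 1.43-fold higher (72.1 ± 7.95 and 103.3 ± 4.12 CPM, adjusted p = 0.00104 with edgeR), and Il6, interleukin 6, was 5.11-fold higher, at 0.291 ± 0.226 and 1.52 ± 0.322 CPM. Tgfb1, the ligand, was at 76.8 ± 5.48 and 81.1 ± 15.2 CPM (adjusted p = 0.661 with edgeR). The number of inducers that were higher was 2 without shNT tumor 2 and 3 without shNT tumor 3, and 3 were lower without shXBP1 tumor 4.

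Of 25 corepressors and regulators of SNAIL stability, 8 were lower and 0 were higher (median -0.17), against 13.1% of tested genes called lower. Ajuba, a LIM protein that bridges SNAIL to its corepressors, fell by 0.71 (SE 0.12, edgeR adjusted p = 0.0013). Suz12 and Ezh2, subunits of the Polycomb complex that SNAIL recruits to Cdh1, fell by 0.44 (SE 0.09) and 0.38 (SE 0.08) on the log2 scale (edgeR adjusted p = 0.00226 and 0.00416). Prmt5, an arginine methyltransferase, fell by 0.34 (SE 0.09), a call that was lost with the tumor number as a block. The count of lower genes was 4 without shNT tumor 1 or 2, 5 without shNT tumor 3, 5 under the filter of 10 CPM in 4 libraries and 4 with that block. Of the 12 epithelial genes above the filter, 3 were higher and 0 were lower, against 16.9% and 13.1% of tested genes. St14, the membrane protease matriptase, was at 0.989 ± 0.120 and 2.81 ± 0.737 CPM (adjusted p = 0.00151 with edgeR), Muc1, a membrane mucin, was at 2.41 ± 0.168 and 4.90 ± 0.953 CPM, and Marveld2, tricellulin, was under 1 CPM in all tumors. The call of Marveld2 was lost in 6 of the 8 fits that leave out 1 tumor and with the tumor number as a block. All 3 were below the filter of 10 CPM in 4 libraries, and 1 epithelial gene was lower without shXBP1 tumor 1 or without shXBP1 tumor 4. Given the Ptprc covariate 0 of the corepressors and 0 of these epithelial genes were called. That fit called 240 genes of the whole table.

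**Figure D5:**
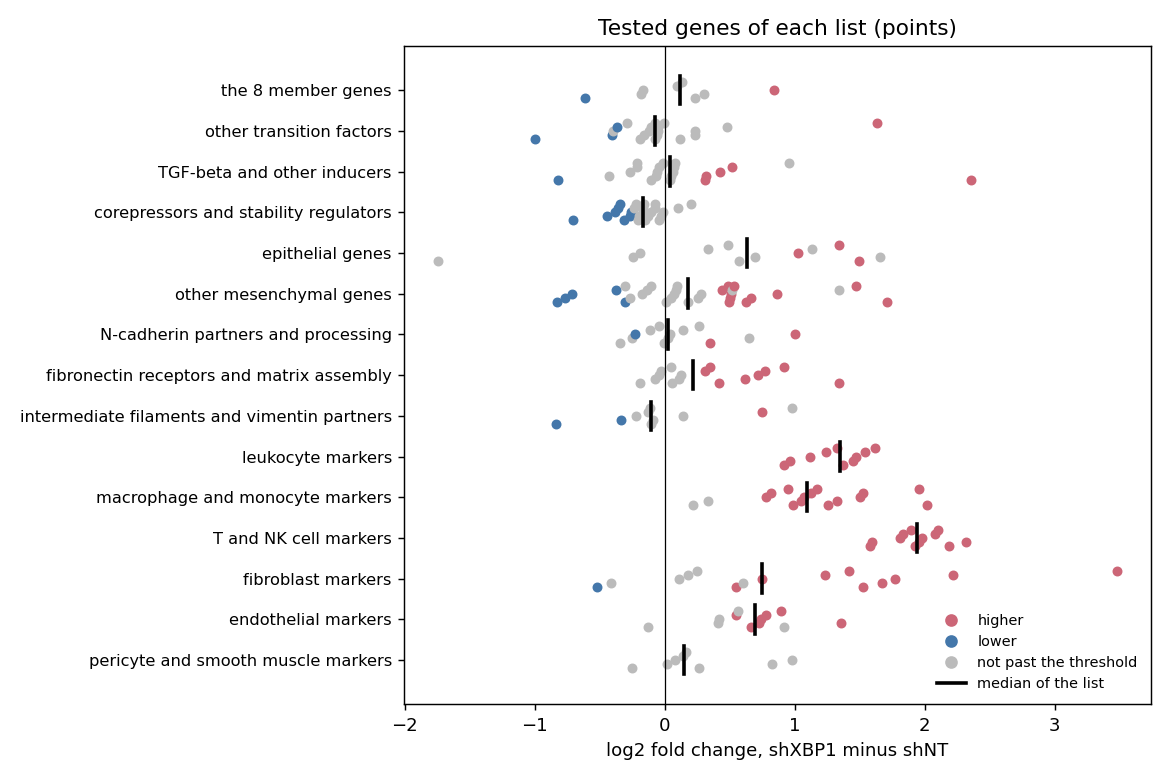
Log2 fold change (shXBP1 minus shNT) of every tested gene of each list, 1 point per gene (red higher, blue lower, gray not past the threshold) with a black bar at the list's median. The 8 member genes lie on either side of 0. The medians furthest to the right are those of the T and NK cell, leukocyte, macrophage, fibroblast, endothelial and epithelial lists (1.94 to 0.63).

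The genes whose pattern over the 8 tumors was most like that of a member were found by the root mean square difference of log2 CPM, each gene centred on its own mean. For Fn1 they were Nfkbiz, a nuclear regulator of NF-kappaB targets (difference 0.08, against 0.47 for the median gene), and S1pr1, a sphingosine 1-phosphate receptor (0.08). For Cdh2 they were Dcbld2, a neuropilin-like membrane protein (0.06, median gene 0.34), and Apex1, a DNA repair endonuclease (0.07). For Snai1 the nearest gene was Tcf7l1, a repressor of Wnt targets (0.06, median gene 0.42). It stood at 4.35, 5.68, 6.79 and 8.01 CPM under shNT and at 5.86, 5.72, 5.17 and 9.19 CPM under shXBP1, with shXBP1 tumor 4 again the highest. Snx2, a sorting nexin, was nearest to Zeb2 (0.03, median gene 0.26), Slc44a1, a choline transporter, to Zeb1 (0.03), Oser1 to Snai2 (0.06), Hexdc, a hexosaminidase, to Vim (0.06) and Tmem19 to Twist1 (0.10). No other member was among the 2 nearest genes of any member.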

How the data were processed

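Per the file headers, the single table carries a count and an FPKM column per tumor (8 tumors) and a DESeq2 comparison by the authors. The counts were deposited as whole numbers without normalization. FPKM values, which the authors divided by length and depth, served for levels between genes. The submitters' processing notes name GRCm38. The sources used here do not give the aligner, the counting program, its strand setting or the annotation. Positions came from GENCODE M21 and promoters and microRNAs from RefSeq tables (GRCm38.p6).

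Genes were filtered with filterByExpr, scaled by TMM (factors 0.980 to 1.04) and tested by edgeR's quasi-likelihood F test (4.0.16, R 4.3.3; robust, without covariates) over all 8 tumors. The test was two-sided and p-values were adjusted by Benjamini-Hochberg over 14907 genes. SE is the log2 fold change over the square root of F. Log2 CPM used a prior count of 2. Renamed genes (Cyr61, Ctgf and T in the table) were matched to their symbols. Where 21 symbols had several identifiers, the highest total was used. The procedure was tested on simulated counts. The members and lists were chosen with earlier results of these data known. Named were all members, up to 4 genes per list with the smallest p, a few set genes, and the 2 most similar genes per member with at least 5 CPM. Alternatives were DESeq2 (1.42.0), limma voom (3.58.1), other size factors, filters, thresholds and covariates, a block, and leaving out each tumor. No pair of tumors was a repeated library (lowest chi-square over degrees of freedom within a group, 16.2). The values of 1 gene that the naming rule selects are not reported here.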

Additional observations from a re-analysis of the deposited data

Results flagged for a closer look

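In 88 genes and ratios, 176 groups of 4 tumors were examined for a tumor far from the other 3, and 11 were found, where chance gives about 1 in 20. Snai1 was at 29.5 CPM in shXBP1 tumor 4, with the others between 15.7 and 17.7 CPM, and the log2 ratio of Snai2 to Snai1 in that tumor was 0.45, with the others between 1.47 and 1.61. In shNT tumor 1 that ratio was 2.08, with the others between 1.30 and 1.42. Twist1 was at 72.0 CPM in shXBP1 tumor 1, with the others between 50.1 and 53.4 CPM. The log2 ratio of Cdh2 to Cdh1 was 2.45 in shNT tumor 2, with the others between 1.85 and 1.86.

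Among genes of the other lists, Tgm2 was at 514 CPM in shXBP1 tumor 1 (others 453 to 461) and Sdc2 at 268 CPM in shNT tumor 4 (others 198.5 to 206). Klrb1c, an NK cell receptor, was at 2.84 CPM in shNT tumor 1 (others 1.56 to 1.73). Cd3e, a CD3 chain, stood at 2.62 CPM in shNT tumor 2 (others 4.55 to 4.89) and at 7.85 CPM in shXBP1 tumor 4 (others 19.0 to 19.4). Myh11, smooth muscle myosin, was at 1.4999 CPM in shXBP1 tumor 4 (others 0.514 to 0.578).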

How the results depend on the processing

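Of the 8 members, 1 was called higher and 1 lower. With the Ptprc covariate 0 were higher and 0 lower, and with the fibroblast covariate 0 and 0 (at an unadjusted p under 0.05, Fn1 and Snai2 with the first and Fn1 with the second). Under the filter of 10 CPM in 4 libraries 2 were higher; leaving out each tumor gave 1 to 2 higher and 1 lower. Of all genes, 2517 were higher and 1958 lower. With the Ptprc covariate these were 134 and 106, with the fibroblast covariate 0 and 3, at a threshold of 0.01 they were 1644 and 879, and leaving out each tumor gave 2058 to 2904 and 1303 to 2401. With the tumor number as a block 1304 genes were lower. Same-numbered tumors did not deviate together (correlations -0.14 to -0.02), and the labels do not say whether they share more than a number. With the block Fn1 was at 0.84 (edgeR adjusted p = 0.0013) and Cdh2 at -0.61 (edgeR adjusted p = 0.0095). Xbp1 was at -0.77 with the fibroblast covariate (adjusted p = 0.481). Among members that did not pass, the sign turned for Snai1 with the fibroblast covariate (-0.93), without shNT tumor 1 (-0.06) and without shXBP1 tumor 4 (-0.15; leaving out each tumor gave -0.15 to 0.26), for Twist1 with the Ptprc (-0.13) and fibroblast (-0.31) covariates and for Zeb2 with the Ptprc covariate (-0.19); the cause was not tested. With the Ptprc covariate Snai1 kept its sign, at 0.97 (SE 0.48, edgeR adjusted p = 0.366), so the 2 covariates moved it in opposite directions. The log2 ratio of Cdh2 to Cdh1 differed by -1.15 to -0.95 over its 10 alternatives. Covariates made the SE of a gene 2.26 and 2.60 times as large at the median, which limits what these fits can call.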
